A study of Mus musculus with 6 samples.

Results

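The pentose phosphate pathway branches from glycolysis at glucose 6-phosphate and was followed here through 8 genes that were picked by name: G6pdx, Pgls, Pgd, Rpe, Rpia, Tkt, Taldo1 and Me1. Probe sets were taken where the array's annotation gave exactly 1 of these symbols. That rule found 74 probe sets for 7 of the 8 genes, out of 20416 genes with at least 1 such probe set. No probe set was named for G6pdx, alone or beside another symbol, so this gene was not analysed here. RNA came from C2C12 cells, an established mouse myoblast line that fuses into multinucleate myotubes in low serum, and was measured on 6 arrays. The 3 insulin cultures had been kept in 100 nM insulin for 48 h, which the labels describe as a way to bring about insulin resistance, and the 3 control cultures had received no insulin. All 6 were differentiated in 2% horse serum after growth in 10% fetal bovine serum, were used as myotubes between days 4 and 7, and had fresh medium every 24 h. The labels call the arrays of a group biological replicates and say no more about how the cultures were separated, and all cells are of this 1 line.

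The oxidative arm of the pathway turns glucose 6-phosphate into ribulose 5-phosphate and yields NADPH at the steps of G6pdx and Pgd. The non-oxidative arm interconverts sugar phosphates through Rpe, Rpia, Tkt and Taldo1, supplies ribose 5-phosphate for nucleotides and returns carbon to glycolysis. Me1, the cytosolic malic enzyme, makes NADPH from malate outside the pathway. In skeletal muscle, as elsewhere, NADPH feeds fatty acid and sterol synthesis and keeps glutathione and thioredoxin reduced.

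Values are the authors' deposited RMA values, and their log base, which no source used here states, was taken as 2 from their range of 3.15 to 14.6. A gene's value is the median over its probe sets, and a change is insulin minus control, so that 1 unit is a doubling. Genes whose mean was under the 30th percentile, or 7.05, were left out, and all 7 measured members were among the 14291 genes tested. Calls are those of limma at a Benjamini-Hochberg adjusted p under 0.05 over all of these genes. Each SE is that of the limma fit, whose variance is moderated over all tested genes or probe sets. It is thus not the scatter of 1 gene's arrays alone. Array medians lay between 8.79 and 8.82, and no pair of arrays was identical. Insulin and control arrays parted on the first principal component (58.6% of the variance), and the next (18.0%) set control 1, at 13.3, apart from control 3, at -15.0. The root mean square distance of an array from its group's mean was 0.092 to 0.093 for insulin arrays and 0.095 to 0.14 for controls, control 1 being farthest. All 19 listed myotube markers passed the filter on dim genes, and their mean level was 12.06 to 12.09 on insulin arrays against 12.27 to 12.47 on control arrays.

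After chronic insulin, Tkt, which encodes the transketolase of the non-oxidative arm, was the 1 member of the 7 that rose, and no member fell in limma's test (2 had an unadjusted p under 0.05 with a change above 0, and 0 with one below). Over all tested genes 9.56% rose and 6.35% fell. The changes of the 7 members were all above 0, from 0.079 for Taldo1 to 0.77 for Tkt with a median of 0.21, while 49.4% of all tested genes were above 0 and their median was -0.0028. That of Pgls, 0.14, turned to -0.0018 when the mean of its probe sets was used in place of the median. In 4 of the 7 members, Tkt, Me1, Pgls and Taldo1, every insulin array lay above every control array, which held for 20.0% of all tested genes. An exact two-sided permutation test of a single gene with 3 arrays against 3 cannot give a p below 0.1, and these 4 genes had that value. Pgd, Rpe and Rpia had an exact permutation p of 0.2.

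**Figure D1:**
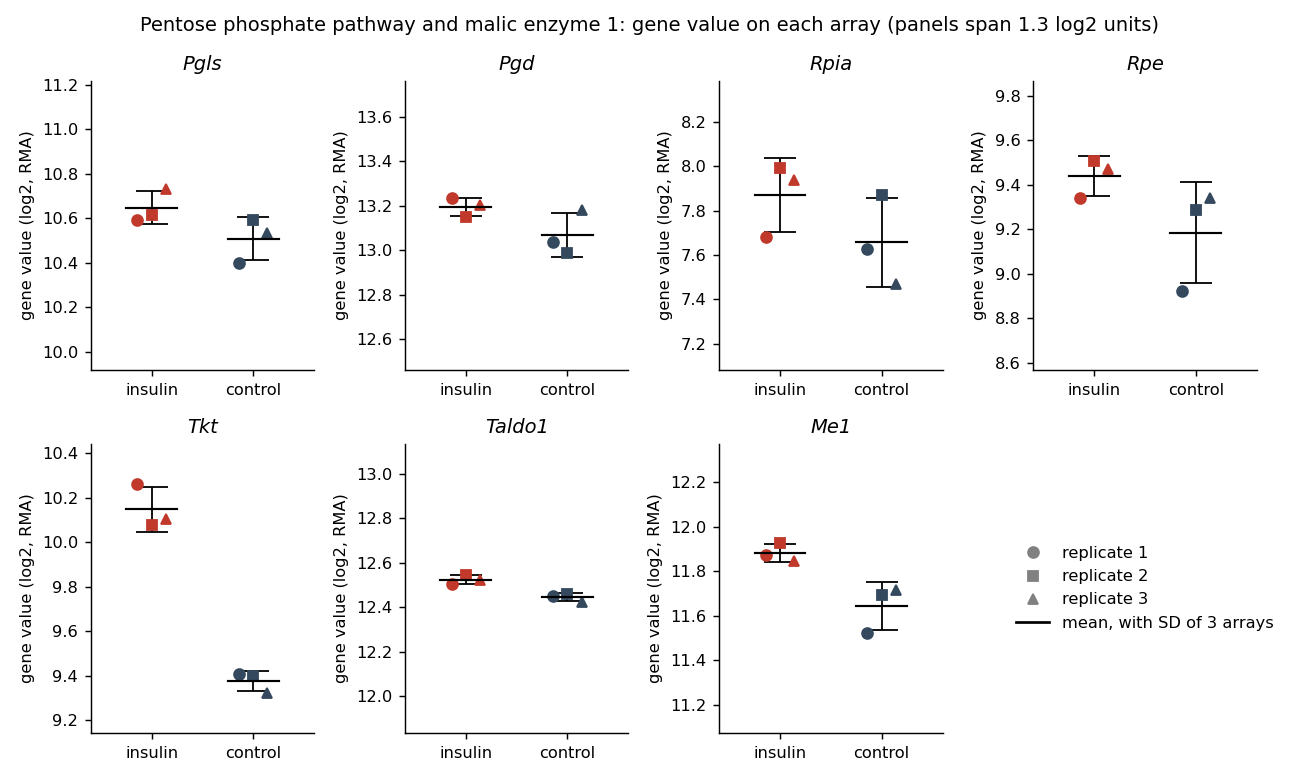
Gene value of each measured member on each array (log2, RMA), insulin arrays on the left and control arrays on the right of each panel. Points are arrays, with the shape marking the replicate, the long bar is the mean and the whiskers are the SD of 3 arrays. All panels span the same number of log2 units. The insulin points of Tkt, at 10.08 to 10.26, stand clear of its control points at 9.32 to 9.40, while those of Pgd, Rpia and Rpe overlap.

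The oxidative arm was measured through Pgls and Pgd. Pgls encodes 6-phosphogluconolactonase, which opens the lactone made by glucose 6-phosphate dehydrogenase. It had values of 10.59, 10.62 and 10.73 on the insulin arrays and 10.40, 10.59 and 10.53 on the control arrays. The groups did not overlap, yet insulin 1 and control 2 were nearly level, and the change was 0.14 ± 0.08 (SE; limma adjusted p = 0.274), or 0.086 without control 1. Pgd encodes 6-phosphogluconate dehydrogenase, the second NADPH-yielding step. Its values were 13.23, 13.15 and 13.20 on the insulin arrays and 13.04, 12.99 and 13.18 on the control arrays. Control 3 lay above insulin 2, so the groups overlapped, with a change of 0.13 ± 0.07 (SE; limma adjusted p = 0.301) and a 95% confidence interval from -0.043 to 0.29. Pgd passed the limma threshold when the mean of its probe sets was used (change 0.27, adjusted p = 0.00673) and with array quality weights (change 0.19, adjusted p = 0.0273).

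In the non-oxidative arm, Rpia, ribose 5-phosphate isomerase, leads toward nucleotide synthesis and Rpe, ribulose 5-phosphate 3-epimerase, toward transketolase. Rpia had values of 7.68, 7.99 and 7.94 on the insulin arrays and 7.63, 7.87 and 7.47 on the control arrays. Control 2 was above insulin 1, and the change of 0.21 ± 0.12 (SE) did not pass the test (limma adjusted p = 0.288). It was 0.12 without control 3, 0.32 without control 2 and 0.041 with array quality weights. Rpe had values of 9.34, 9.51 and 9.47 on the insulin arrays and 8.92, 9.29 and 9.34 on the control arrays. Control 1 was the low array here, while control 3 exceeded insulin 1 in the third decimal. The change of Rpe was 0.26 ± 0.11 (SE; limma adjusted p = 0.180), and it was 0.13 without control 1. With the brightest probe set alone both passed the limma threshold, Rpe with 0.51 (adjusted p = 0.0492) and Rpia with 0.57 (adjusted p = 0.0479), and Rpe also passed with the mean of its probe sets (0.33, adjusted p = 0.0162).

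Tkt moves 2-carbon units between sugar phosphates and so joins the pathway to fructose 6-phosphate and glyceraldehyde 3-phosphate. Its values were 10.26, 10.08 and 10.10 on the insulin arrays and 9.40, 9.40 and 9.32 on the control arrays. The lowest insulin array thus stood well above the highest control array. The change was 0.77 ± 0.07 (SE; limma adjusted p = 0.000825), or 1.71-fold with a 95% confidence interval from 1.52 to 1.92, and by size it was rise number 132 among the 14291 genes. Tkt was called in each of the 16 other settings tried, with changes from 0.72 to 0.81 and limma adjusted p-values from 5.49e-05 to 0.00693. Taldo1 encodes transaldolase, which works beside transketolase and moves 3-carbon units. Its values were 12.50, 12.55 and 12.53 on the insulin arrays and 12.45, 12.46 and 12.43 on the control arrays. The groups were separate by a narrow margin, with a change of 0.079 ± 0.059 (SE; limma adjusted p = 0.426) and a 95% confidence interval from -0.058 to 0.22.

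Me1 had values of 11.87, 11.93 and 11.85 on the insulin arrays and 11.52, 11.69 and 11.72 on the control arrays. Every insulin array was above every control array, and control 1 was the lowest. The change was 0.24 ± 0.07 (SE), or 1.18-fold with a 95% confidence interval from 1.05 to 1.33, and its limma adjusted p of 0.0668 missed the threshold. It passed in 5 of 17 other settings, with adjusted p = 0.0408 under a filter at the 50th percentile, 0.0284 with an intensity trend and robust prior, 0.0174 with array weights and 0.0398 with the brightest probe set. The fifth, chosen after seeing the data, left out the 1 probe set of Me1 whose number stands apart from the run of the others (0.23, adjusted p = 0.0414). Without control 1 the change was 0.18 (limma adjusted p = 0.119).

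**Figure D2:**
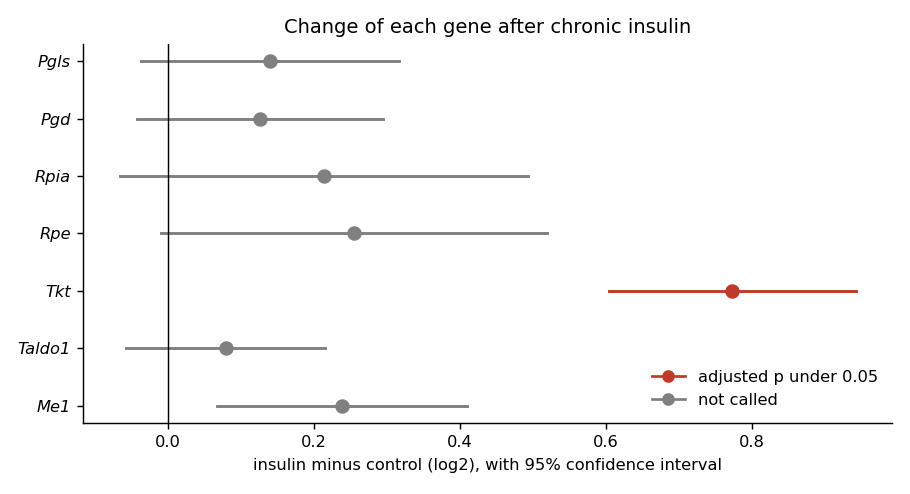
Insulin minus control of each measured member on the log2 scale, with the 95% confidence interval of the limma fit as a bar. Genes run down the page from the oxidative arm to Me1, and red marks an adjusted p under 0.05 over all tested genes. The interval of Tkt, from 0.60 to 0.94, lies to the right of all others, that of Me1 starts at 0.067, and the intervals of the other 5 genes cross 0.

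The ratio of Tkt to each other member within an array was compared next, for 6 pairs, with Tkt taken because its change was the largest, so no test is given. The difference of the log2 values was higher on insulin than on control arrays by 0.69 against Taldo1, 0.65 against Pgd, 0.63 against Pgls, 0.56 against Rpia, 0.53 against Me1 and 0.52 against Rpe. In all 6 pairs the lowest insulin array lay above the highest control array. All 6 share the values of Tkt, whose own groups lay far apart, so this count is no separate evidence. The margin was narrowest against Rpe, where the lowest insulin difference was 0.57 and the highest control difference 0.48. Against Taldo1 these bounds were -2.47 and -3.05. Levels of different genes are not compared here, since probe sets differ in brightness, and only the shift of each difference between groups is read. The largest shifts were against Taldo1 and Pgd, the members with the highest values, and whether brightness also affects the shift was not tested.

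The promoter windows of the 2 members farthest from 0 by limma's p-value, Tkt and Me1, are shown to set their sequence beside these changes. They are RefSeq windows of 300 bases that end shortly past the annotated start in build GRCm38.p6, on the gene's strand, 5′ to 3′. The Tkt window is chr14:30548881-30549180 (+ strand) and the Me1 window chr9:86695865-86696164 (− strand), the first of 2 for that gene. Capitals mark GC boxes (GGGCGG or its reverse complement CCGCCC, where SP-family factors can bind) and the antioxidant response element (TGACNNNGC, the letters read by NRF2, the product of Nfe2l2).
Tkt: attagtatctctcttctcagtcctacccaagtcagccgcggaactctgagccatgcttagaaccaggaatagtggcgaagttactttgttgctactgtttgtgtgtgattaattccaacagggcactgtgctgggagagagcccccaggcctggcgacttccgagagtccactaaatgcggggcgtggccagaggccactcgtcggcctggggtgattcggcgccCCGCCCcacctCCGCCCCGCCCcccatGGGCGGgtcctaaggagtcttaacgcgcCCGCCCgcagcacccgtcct
Me1: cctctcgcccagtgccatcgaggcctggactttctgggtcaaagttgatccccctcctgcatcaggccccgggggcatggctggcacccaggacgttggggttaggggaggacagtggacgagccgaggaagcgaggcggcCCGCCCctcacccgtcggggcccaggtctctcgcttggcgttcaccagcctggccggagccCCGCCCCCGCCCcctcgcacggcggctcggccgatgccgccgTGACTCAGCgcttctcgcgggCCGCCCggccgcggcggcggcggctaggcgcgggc
Tkt held 5 GC boxes, 1 of which overlaps its neighbour by a base, and no match to the antioxidant response element. Me1 held 4 GC boxes and 1 antioxidant response element at bases 245 to 253 of the window, written TGACTCAGC, which starts 6 bases before the start site.

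Over the 10 RefSeq windows of all 8 member genes, both strands being searched, 8 windows held a GC box, 1 window of each gene, against 35.7% of the 32851 mouse windows of that length. The antioxidant response element was in 3 of the 10 windows, those of Me1, the second window of Pgd and G6pdx, against 12.4% of all windows. The match of Pgd (TGACATTGC) starts 3 bases past the annotated start site, inside the transcribed stretch, while those of Me1 and G6pdx start before it. Whether the letters in Pgd are coding sequence was not tested. None of the 10 held the sterol regulatory element TCACNCCAC (1.24% of all windows), the E-box CACGTG (7.15%) or the TGATGNAA element of C/EBP and ATF factors (3.97%). These are matches of letters in a short window and say nothing of binding.

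The probe sets of a gene sample different parts of its transcripts and are not replicates, but they show how evenly a change was spread. Of the 74 probe sets of the members, 70 passed the filter on dim probe sets (7.36 or more), and the 4 others all belonged to Rpia. Limma called 13 of the 70 as higher after insulin and 0 as lower (33 and 3 at an unadjusted p under 0.05), against 3.43% higher and 1.44% lower, or 4.87% in either direction, of the 169103 probe sets tested. Of these 13, 11 belonged to Tkt, 1 to Pgd and 1 to Rpe. The change was above 0 in 64 of the 70, as in 49.1% of all tested probe sets, and every insulin array was above every control array in 45, as in 16.6% of all.

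**Figure D3:**
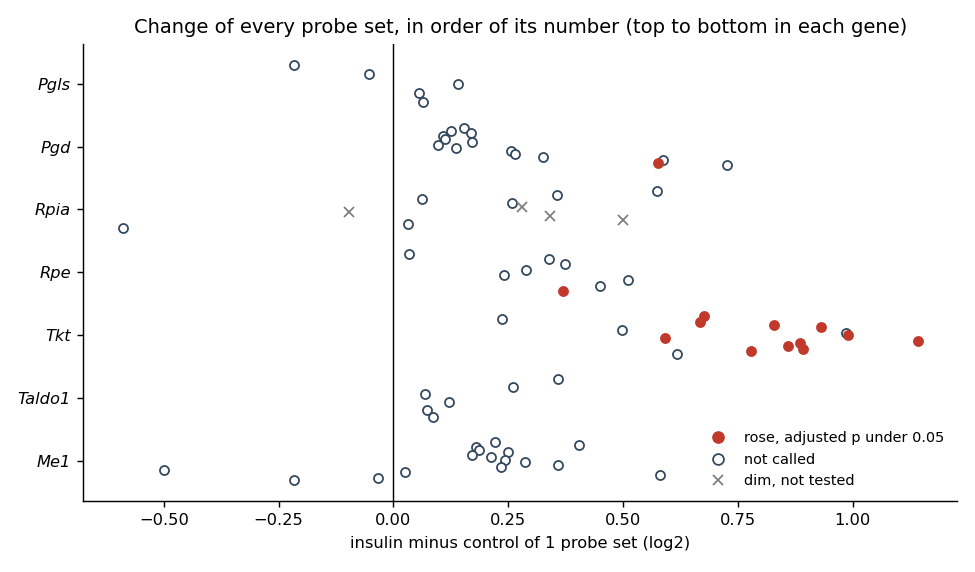
Insulin minus control of each of the 74 probe sets of the members (log2), one row of points per gene, with the probe sets of a gene running down the row in order of their number. Filled red points rose at an adjusted p under 0.05, open points were not called and crosses were too dim to test. The points of Tkt run from 0.24 to 1.14, while those of Rpia run from -0.59 to 0.57.

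All 15 probe sets of Tkt had changes above 0, from 0.24 to 1.14 with a median of 0.83, and in 13 of them the groups did not overlap. The tenth by number changed most, with 10.86, 10.90 and 10.79 on the insulin arrays and 9.62, 9.62 and 9.89 on the control arrays, a change of 1.14 ± 0.10 (SE; limma adjusted p = 0.00647). The smallest change was that of the second by number, with 9.06, 8.95 and 9.11 on the insulin arrays and 8.84, 8.47 and 9.10 on the control arrays, where control 3 reached the insulin range (0.24 ± 0.16, limma adjusted p = 0.451). The count of 11 called probe sets depended on the arrays: it was 4 without insulin 1, 3 without insulin 2, 1 without insulin 3 and 7 without control 2.

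Pgd also had all of its 14 probe sets above 0. The first 11 by number had changes of 0.097 to 0.32, and the last 3 had 0.59, 0.58 and 0.73. The last 3 were also the dimmest, with mean levels of 11.31, 11.72 and 11.47, while the first 11 lay between 12.64 and 13.73. Whether the larger changes go with brightness or with place in the transcript was not tested. The last had 11.75, 11.84 and 11.91 on the insulin arrays and 10.89, 10.93 and 11.50 on the control arrays, so control 3 was closest to the insulin arrays (limma adjusted p = 0.0635). The thirteenth had 11.90, 12.05 and 12.08 on the insulin arrays and 11.22, 11.50 and 11.58 on the control arrays and was the 1 probe set of Pgd that rose (0.58 ± 0.12 SE, limma adjusted p = 0.0446). The gene value of Pgd, being a median, follows the first 11. How probe set numbers map onto the transcript was not analysed here.

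Rpia had the widest range of probe set changes, from -0.59 to 0.57. Its first probe set had 11.40, 11.40 and 11.70 on the insulin arrays and 10.65, 10.97 and 11.15 on the control arrays (change 0.57, limma adjusted p = 0.0886). Its last ran the other way, with 9.12, 9.23 and 9.21 on the insulin arrays and 10.11, 9.66 and 9.55 on the control arrays (change -0.59, limma adjusted p = 0.0815). Neither passed the threshold, although in both the groups were separate. Me1 had 13 probe sets above 0 and 3 below, from -0.50 to 0.58, and 11 of its 16 had every insulin array above every control array. The 8 probe sets of Rpe ran from 0.034 to 0.51, the 6 of Taldo1 from 0.069 to 0.36 and the 5 of Pgls from -0.22 to 0.14.

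**Figure D4:**
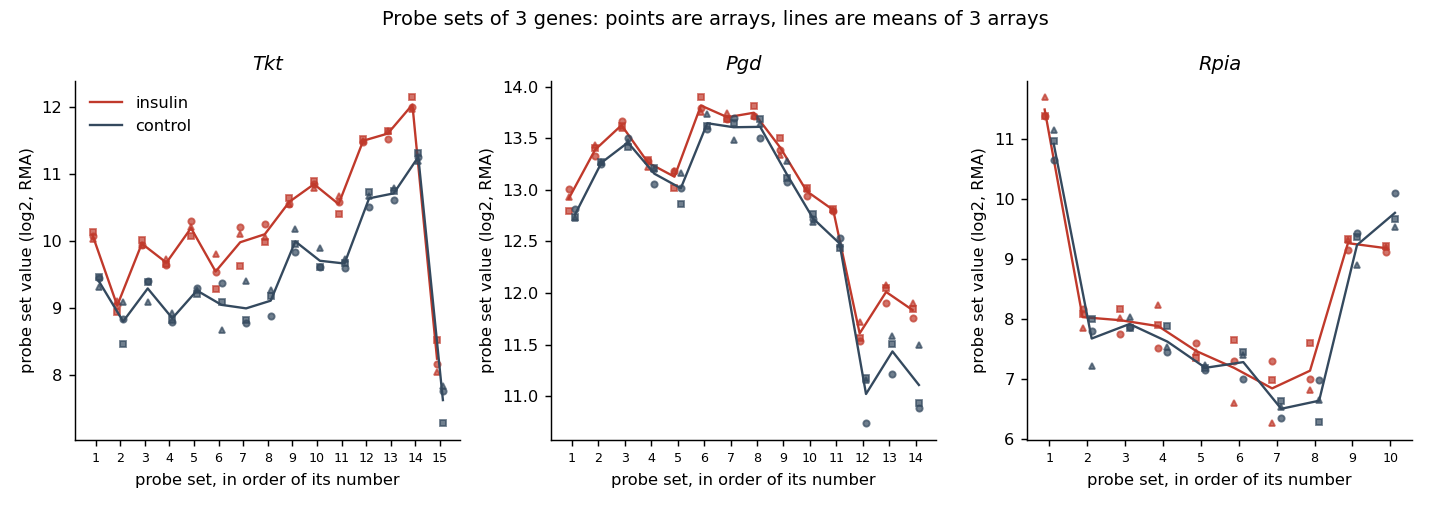
Value of each probe set (log2, RMA) of Tkt, Pgd and Rpia, in order of its number, on the 3 insulin arrays (red) and the 3 control arrays (dark blue). Points are arrays and lines join the means of 3 arrays. In Tkt the lines stay apart along most probe sets, in Pgd they are widest apart at the last 3, and in Rpia they cross more than once.

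Whether the probe sets of a gene changed by different amounts was tested by setting each probe set against the median of the gene's others on the same array. Of 15137 genes with enough tested probe sets, 0.0991% passed limma's test with Simes' rule within genes and Benjamini-Hochberg adjustment over genes, and none of the 7 members did. Rpia came nearest (adjusted p = 0.490, unadjusted 0.0229), then Pgd (0.565, unadjusted 0.0408), and for Me1, Taldo1, Tkt, Pgls and Rpe the adjusted p was 0.698, 0.788, 0.795, 0.808 and 0.847. Pgd passed limma's diffSplice F test (adjusted p = 0.00139), which takes all probe sets of a gene to vary alike and called 505 genes.

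Among 16 other genes of the pathway and its outlets, 12 were bright enough to test. Of these 6 rose and 0 fell in limma's test (7 and 0 at an unadjusted p under 0.05), with a median change of 0.29. The shares over all tested genes, for this list and those below, were 9.56% risen and 6.35% fallen. G6pd2, an autosomal intronless relative of G6pdx, was read by 1 probe set with 10.43, 10.47 and 10.47 on the insulin arrays and 9.94, 9.87 and 9.92 on the control arrays. The groups stood apart, with a change of 0.54 ± 0.06 (SE; limma adjusted p = 0.00171). As the 2 genes are highly similar in sequence, whether this probe set reads G6pdx, G6pd2 or both was not tested.

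Phosphoribosyl pyrophosphate synthetases carry ribose 5-phosphate into nucleotide synthesis. Prps1 rose by 0.33 (limma adjusted p = 0.0202), a call lost with the brightest probe set (0.13, adjusted p = 0.244), without insulin 2 and without insulin 3. Prps2 rose by 0.36 (limma adjusted p = 0.0309), a call lost with no filter (0.0564), with the brightest probe set (0.20, adjusted p = 0.213) and without any 1 array other than control 3. Prpsap2, a protein that associates with these enzymes, had 10.47, 10.36 and 10.46 on the insulin arrays and 9.46, 9.60 and 9.96 on the control arrays. Its groups were separate, and it rose by 0.76 ± 0.12 (SE; limma adjusted p = 0.00586). The related Prpsap1 had a change of 0.20 and did not pass (limma adjusted p = 0.214), and 0.091 without control 1.

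Of the phosphoglucomutase pair, the symbol Pgm1 rose by 0.71 (limma adjusted p = 0.00197) and Pgm2 by 0.28 (0.0370). The call of Pgm2 was lost with each of the 6 arrays left out in turn (limma adjusted p from 0.0649 to 0.129), with no filter (0.0679) and with the brightest probe set (0.209). RefSeq lists each symbol as an old name of the other gene, so which gene each stands for was not settled. No call was made for Tigar, listed as 9630033F20Rik, a bisphosphatase that favours the pathway over glycolysis. Its change was 0.30 (limma adjusted p = 0.0903), though the adjusted p was 0.0139 with array weights and 0.00412 with the mean of probe sets. Not called either were Rbks (ribokinase), at 0.068, and Dera (deoxyribose-phosphate aldolase), at -0.049. The same held for H6pd (hexose-6-phosphate dehydrogenase of the endoplasmic reticulum), at -0.051, and Idnk (gluconokinase, listed as 5133401N09Rik), at -0.094. The signs of Rbks, H6pd and Dera turned with the brightest probe set. The transketolase-like genes Tktl1 and Tktl2, together with Prps1l1 and Shpk (sedoheptulokinase), were under the filter and were not tested. Without insulin 2, or without insulin 3, 3 of the 6 calls of this list were made, and with the brightest probe set likewise 3.

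The other routes to NADPH were mixed. Of 13 listed genes 12 were found by symbol and tested. In limma's test 3 rose and 1 fell (6 and 1 at an unadjusted p under 0.05), with a median change of 0.15. Aldh1l2, the mitochondrial 10-formyltetrahydrofolate dehydrogenase, rose by 1.52 ± 0.07 (SE; limma adjusted p = 2.04e-05). Mthfd1, the cytosolic trifunctional folate enzyme, rose by 0.48 (limma adjusted p = 0.00373), though its brightest probe set gave 0.17 (0.198), and Nadk, which phosphorylates NAD+ to NADP+, rose by 0.40 (0.00950). Me3, a mitochondrial malic enzyme, had 9.09, 9.29 and 8.96 on the insulin arrays and 9.62, 9.72 and 9.74 on the control arrays. It was therefore lower after insulin, with a change of -0.58 ± 0.09 (SE; limma adjusted p = 0.00586), while its cytosolic relative Me1 was not.

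Of 27 listed genes whose enzymes consume NADPH, 22 were found by symbol and tested. In limma's test 10 rose and 1 fell (14 and 2 at an unadjusted p under 0.05), with a median change of 0.25. The quinone reductase Nqo1 rose by 0.95 (limma adjusted p = 0.000825), Aldh18a1 of proline synthesis by 0.75 (0.000526) and the sterol reductase Tm7sf2 by 0.52 (0.0358). Nox4, an NADPH oxidase, was lower after insulin, with a change of -0.51 (limma adjusted p = 0.0252). The 11 calls became 5 without insulin 1, 6 without insulin 2, 7 without insulin 3 and 5 without control 2, and 7 with the brightest probe set. Among these losses, Tm7sf2 was not called with no filter or without insulin 1, insulin 3, control 1 or control 2, and Nox4 was not called without insulin 1, insulin 3, control 2 or control 3.

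Of 10 glycolytic genes around the branch points 3 rose and 1 fell, with a median change of 0.0045. Pfkl, the liver-type phosphofructokinase, rose by 0.63 (limma adjusted p = 0.000804), Aldoc (aldolase C) by 0.58 (0.0167) and Hk1 (hexokinase 1) by 0.37 (0.0148), while the muscle-type Pfkm changed by -0.35 (0.0212). Among 11 transcription factors and sensors known to act on these genes 3 rose and 1 fell, with a median change of 0.036. Myc rose by 0.67 (limma adjusted p = 0.00109), Srebf1 by 0.40 (0.00585) and Atf4 by 0.35 (0.0195), and Bach1, a repressor that competes for antioxidant response elements, changed by -0.27 (0.0216). With the brightest probe set Srebf1 had -0.027, and Hk1, Pfkm, Myc and Bach1 were not called. Hk1 was also not called with the mean of probe sets. In each of these 2 lists the 4 calls became 2 without insulin 1, insulin 2, insulin 3 or control 2, and 1 with the brightest probe set. The calls lost with an array left out were those of Aldoc, Hk1, Pfkm, Atf4 and Bach1, while Pfkl, Myc and Srebf1 were called with each array left out.

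**Figure D5:**
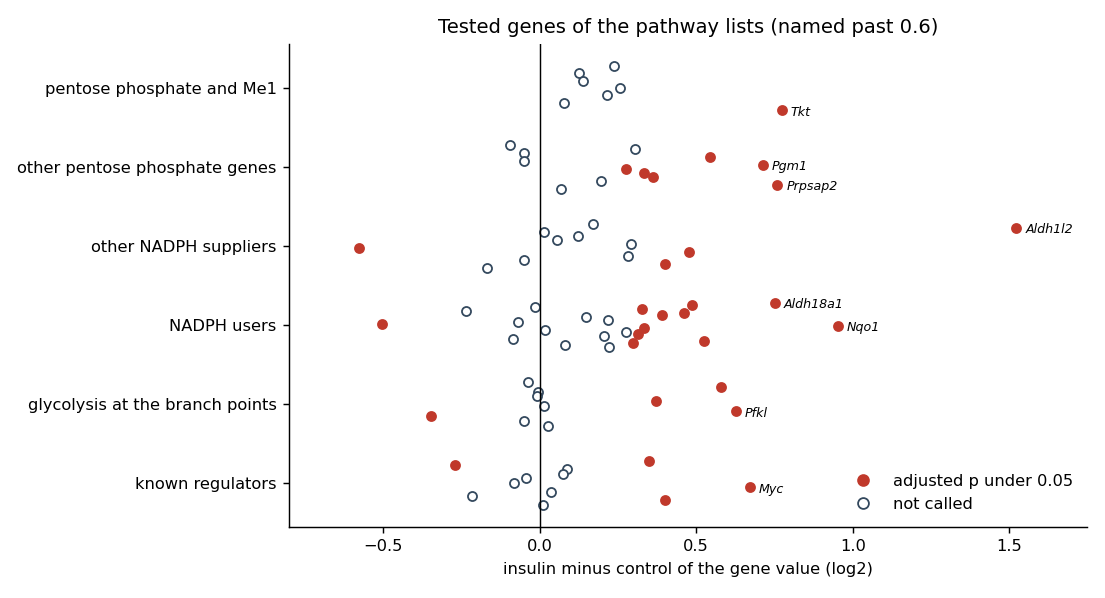
Insulin minus control (log2) of every tested gene of the members and of 5 related lists, one row per list and one point per gene. Filled red points had an adjusted p under 0.05 over all tested genes, and called genes past 0.6 are named. The members lie between 0.079 and 0.77, and the other lists reach to both sides of 0.

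The genes whose profiles over the 6 arrays were closest to that of Tkt, by the root mean square difference after centring each gene, were Spag5 (0.049), Casc5 (present symbol Knl1; 0.051), Cdr2l (0.052), Slc2a1 (0.055) and Gm129 (Ciart; 0.060). Their changes lay between 0.76 and 0.80, and such closeness to the change of Tkt follows from how they were chosen. How common cell division genes are among all genes with a similar change was not tested. The first 2 encode proteins of the mitotic spindle and the kinetochore, and Slc2a1 encodes the glucose transporter GLUT1.

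Markers of dividing cells moved in the same direction as Tkt. All 11 tested markers of dividing cells rose, with a median change of 0.57, and their mean level was 11.53 to 11.57 on insulin arrays and 10.93 to 10.99 on control arrays. Of the 19 myotube markers 8 fell and 0 rose in limma's test (14 and 0 at an unadjusted p under 0.05), with a median change of -0.26. Of 9 tested markers of undifferentiated myoblasts 4 rose and 2 fell, and the mean level of the list was 9.68 to 9.74 on insulin arrays and 9.58 to 9.64 on control arrays. Of other cell types, 1 of 5 tested adipocyte markers rose and 1 fell, and 1 of 5 fibroblast markers fell. Limma called 0 of 4 osteoblast markers (1 at an unadjusted p under 0.05) and 0 of 2 tested leukocyte and endothelial markers (0 unadjusted). The mean level of the fibroblast list was 8.71 to 8.82 on insulin arrays and 8.87 to 8.98 on control arrays, and those of the adipocyte, osteoblast and leukocyte and endothelial lists overlapped between the groups. What part any of these shifts has in the change of Tkt was not tested. In RNA from whole cultures, fewer cells of a type and less RNA per cell cannot be told apart.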

How the data were processed

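For each of 241576 probe sets the authors deposited log2 values of the 6 arrays, made with RMA per the submitters' processing notes, from 25 ng of total RNA amplified before biotin labelling, per the labels' protocols. Neither the log base nor the version is stated, and base 2 was inferred from the range. Scanner files, detection calls, scan dates and batches were not used here. GEO's platform annotation gave 1 symbol to 212097 probe sets, several to 4475 and none to 25004. A gene's value was the median of its probe sets with exactly 1 symbol. Genes, and separately probe sets, under the 30th percentile were left out, and insulin minus control was fitted on 3 against 3 arrays with limma 3.58.1 in R 4.3.3 (lmFit and eBayes, two-sided, without covariates), with Benjamini-Hochberg adjustment over 14291 genes or 169103 probe sets and a threshold of 0.05. The number of arrays limits the precision. Limma's p-values set the difference of the groups against the spread between these arrays, moderated over all tested genes or probe sets. RMA equalizes arrays, so changes are relative to other transcripts.

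Unequal probe set changes were to be tested with limma's diffSplice. On simulated data it called too many unchanged genes, so before its result here was seen it was replaced by a limma fit of each probe set minus the median of its gene's others, with Simes' rule per gene and Benjamini-Hochberg adjustment over 15137 genes. Both the gene fit and this replacement were tested on simulated data.

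The members and lists were chosen with earlier results of these data known. Named were all members, all listed other pentose phosphate genes in the table, up to 4 called genes of each further list by absolute change, and the 5 profiles nearest to the called member with the largest change. Probe sets named singly were chosen after their values were seen, as were the 2 promoters printed. Present symbols and promoters came from RefSeq (GRCm38.p6). The alternatives were other filters, other gene summaries, another quantile normalization, median centring, array quality weights, a trended robust prior, a block on the replicate number and leaving out each array.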

Additional observations from a re-analysis of the deposited data

How the results depend on the processing

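Tkt was called under all alternatives tried, and no other member was called in the analysis as reported. The 1 called member became 2 with a filter at the 50th percentile, where Rpia was not tested, and 2 with an intensity trend and robust prior. The count of members was 3 with array quality weights, 4 with the brightest probe set and 3 with the mean of probe sets. It stayed 1 with each array left out. The 2274 called genes became 2497 with the filter at the 50th percentile, 2695 with the trend and robust prior and 5007 with array quality weights. They became 1532 with the brightest probe set, 3436 with the mean of probe sets and 1045 to 2449 with an array left out. The 8235 called probe sets became 2960 with no filter, 14395 with the trend, 31205 with weights and 429 to 5224 with an array left out, and the 13 called probe sets of members became 24, 33 and 1 to 14 with the trend, with weights and with an array left out. The 15 genes with unequal probe set changes became 6 with no filter, 28 with a filter at the 50th percentile, 505 with diffSplice, the test first planned, and 3 to 6 with an array left out. Other NADPH suppliers had 4 calls, and 7 with weights or 8 with the mean of probe sets. Signal over background was not judged, which limits dim probe sets such as 4 of those of Rpia, and with them the gene value of Rpia.

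Signs turned for Pgls with the mean of probe sets (-0.0018), for H6pd with the brightest probe set (0.025) and without insulin 1 (0.019), for Rbks with weights (-0.12), with the brightest probe set (-0.0023) and without control 1 (-0.050; 0.18 at the highest, without control 2), for Dera with the brightest probe set (0.14) and the mean (0.053), and for Srebf1 with the brightest probe set (-0.027). None of these was called under the alternative, and the cause was not tested.

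The groups share replicate numbers, and the labels do not say whether these pair the arrays. Deviations of same-numbered arrays correlated at 0.025, 0.19 and -0.00036, and those of differently numbered arrays at -0.10 to 0.069. With so few arrays these correlations cannot settle whether the cultures were paired. With the replicate number as a block, 656 probe sets were called, 3 of them of members and all 3 of Tkt, and 3 genes had unequal probe set changes. The block ended the call of Pgm2 (adjusted p = 0.0616) and left 1 member called. Over all alternatives, the named genes of the lists outside the members lost a call with their sign kept 50 times. Srebf1 also lost its call where its sign turned. Calls were lost most often by Pgm2 (9 settings) and Prps2 (7 settings), and direction and side of the threshold were kept 385 times.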
